A study of Mus musculus with 2 samples.

Results

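Neutrophil-lineage cells with high S100a8 and S100a9 were described in lineage-depleted mouse bone marrow after hypoxia and in a control. They were chosen by 3 limits on scaled counts, in CP10K, the unique molecules (UMIs) of a gene per 10000 UMIs of the cell. A cell was a member with S100a8 plus S100a9 of at least 50, Mcpt8 plus Prss34 (basophil genes) under 20 and Epx (an eosinophil gene) under 10 CP10K. The rule found 214 of 10342 cells kept at under 20% mitochondrial UMIs, 134 after hypoxia and 80 in the control. S100a8 and S100a9 are therefore high by choice, and their levels are a description only.

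Neutrophils are made in bone marrow from granulocyte-monocyte progenitors, and the granule proteins are made in waves. Promyelocytes make the serine proteases and myeloperoxidase of primary (azurophil) granules, myelocytes and metamyelocytes make the lactoferrin, cathelicidin and neutrophilic granule protein of secondary granules, and later cells make gelatinase granules and acquire the receptors that release them to blood. S100a8 and S100a9 encode the 2 chains of calprotectin, a calcium-binding protein that fills the neutrophil cytosol.

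Both groups were ICR mice, an outbred stock, aged 7 to 8 weeks. Hypoxia lasted 13 days in a low-pressure chamber held at 52.93 kPa, which corresponds to 5000 m by the labels, with 19.5% oxygen. The control mice were killed when they arrived, so treatment cannot be told apart from time, age at death and handling. Each group gave 1 library, made on the BD Rhapsody platform after magnetic beads had removed lineage-positive marrow cells. The sources used here do not give the number of mice. Cocktails used for such depletion bind CD11b and Gr-1, which neutrophils carry, so the members are the cells the beads left behind. Their share and mix do not give those of the marrow. With 1 library per group no test was run, and all 95% intervals cover counting error only.

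The labels call the captured cells haematopoietic stem and progenitor cells, but in the members the summed stem and multipotent progenitor markers had a median of 0 CP10K in both libraries. Summed B-lineage, megakaryocyte, dendritic and stromal markers also had a median of 0. Neutrophil markers that the rule does not use were high. Ngp, which encodes neutrophilic granule protein, stood at 21770 UMIs per 1000000 (CPM) in the pooled members and 3.42 CPM in all other kept cells. With S100a8 and S100a9 left aside, Camp (cathelicidin), Retnlg (resistin-like gamma), Ltf (lactoferrin), Lcn2 (lipocalin 2), Mmp9, Chil3 and Mmp8 followed it by fold over the other cells. The monocyte markers summed to a median of 9.28 CP10K in hypoxia and 20.9 in control. The other kept cells had medians of 0.242 and 0 CP10K for this list. It includes Ly6c2, which immature neutrophils also express. Of its 9 genes, Ccr2 and Klf4 were at 0 in both libraries and Ms4a6c and Fcgr1 at 0 in control only, while the others had UMIs in both. Only 2 members in each library had no neutrophil marker other than S100a8 and S100a9. The neutrophil markers outside the rule fit the label of neutrophil-lineage cells.

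Members were shallow cells. The median was 3021 UMIs in hypoxia and 4367 in control, against 21831 and 32744 in the other kept cells of each library, and 23 cell indices occurred in both tables. Members with 50 to 100 CP10K of S100a8 plus S100a9 numbered 6 and 5, of which 3 and 4 had at least 100 CP10K of Mpo, Elane, Prtn3 and Ctsg, and 1 and 10 cells had 25 to 50 CP10K, of which 1 and 5 did. The count of such early members therefore depends on the threshold. The lowest members had 55.0 and 53.7 CP10K, and the highest cells below the threshold had 40.6 and 45.9.

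Some members carried genes of other lineages, which bears on every summed value below. In hypoxia, 5 members of at least 8000 UMIs had 18.0 to 90.6 CP10K over 19 erythroid, basophil and stem markers and held 17.1% of all member UMIs, and the doublet caller Scrublet marked 4 of them. In control, 1 such member, with Cpa3, a mast cell protease gene, held 2.41%. Scrublet marked 7 hypoxia and 0 control members, out of 112 (1.75%) and 36 (0.911%) kept cells marked. These cells were kept, since the rule names no doublet step, and results that turn on them are given with and without them. Also in hypoxia, 1 member had B-lineage markers (118 CP10K) and 3 had at least 20 CP10K of eosinophil markers, up to 654. Prg2, an eosinophil granule gene, had 87 UMIs in hypoxia, 74.7% of them in 1 cell, and 0 in control.

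The members spanned the whole order of granule gene expression. They were split by Mpo, Elane, Prtn3 and Ctsg into a primary granule stage (sum of at least 100 CP10K), and by Ltf, Camp and Ngp into a secondary granule stage (at least 300), an intermediate stage (20 to 300) and a late stage (under 20). Stages were set after the data were seen, because cells low in Ltf, Camp and Ngp include the earliest and the latest members, and they are ranges of a score, not cell types. Within a factor of 2 of the limit of 300 lay 28 hypoxia and 6 control members, within that factor of 20 lay 3 and 9, and of the primary granule limit 4 and 1.

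**Figure D1:**
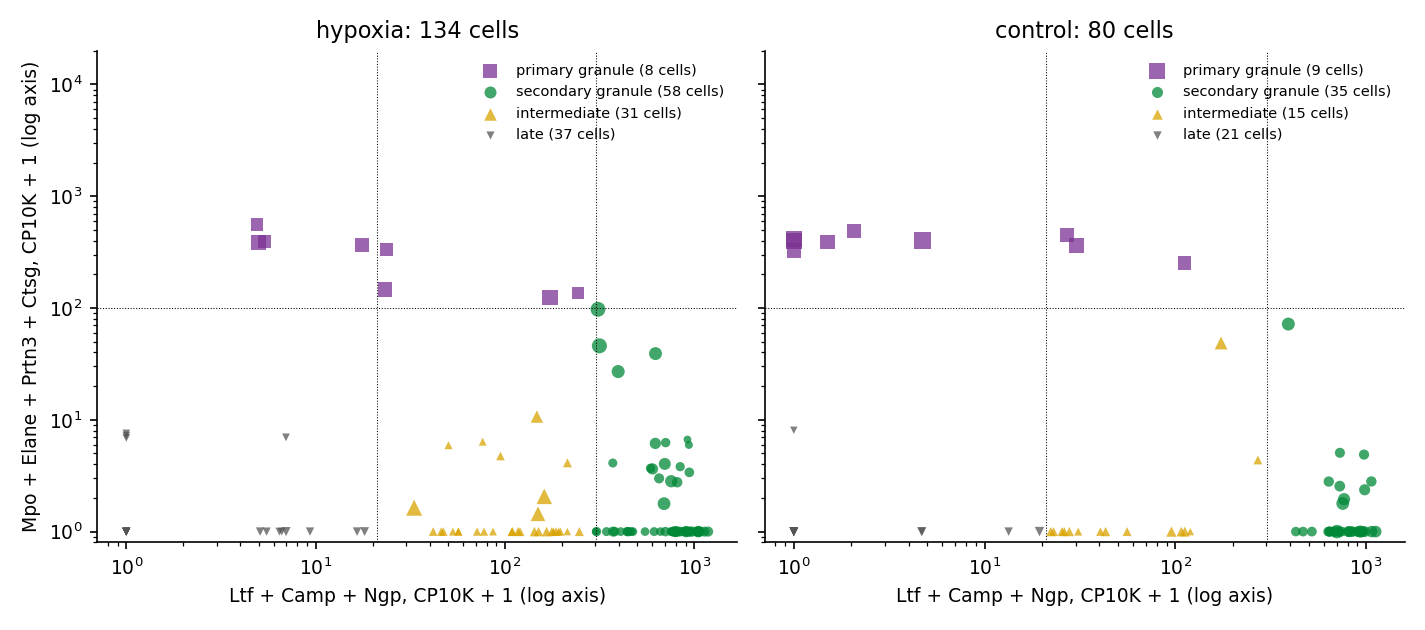
Each point is 1 member, hypoxia or control, with the sum of Mpo, Elane, Prtn3 and Ctsg on one axis and that of Ltf, Camp and Ngp on the other, both in CP10K on log axes. Larger points have more UMIs, and dotted lines mark the stage limits. The 17 members past the primary granule limit (8 hypoxia, 9 control) are among the largest points, with at least 11473 UMIs each.

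Genes that did not define the stages also differed between them. By definition, Mpo (myeloperoxidase) was highest at the primary granule stage and Ngp at the secondary. Mpo reached 10630 CPM in hypoxia and 12710 in control, and primary granule cells had 3438 to 6167 detected genes each. Ngp reached 41968 and 48447 CPM. Retnlg, outside the definition, was at 6858 and 7135 CPM at the secondary stage and 26627 and 37700 at the late stage. Cxcr2, the chemokine receptor that draws neutrophils out of marrow, went from 903 and 792 CPM at the secondary stage to 6959 and 6832 at the late stage. Csf3r, the G-CSF receptor, went from 199 and 214 to 2932 and 2893. Il1b, encoding interleukin 1 beta, was counted 0 times in both libraries at the primary and the secondary stage and stood at 2159 and 2404 CPM at the late stage. Depth was lower along the same order, with medians of 17256 and 21889 UMIs at the primary, 4012 and 5530 at the secondary, 2701 and 3270 at the intermediate and 1479 and 2182 at the late stage. The share of UMIs from mitochondrial genes had a median of 7.52% and 8.41% at the primary stage and 0.636% and 0.536% at the late stage.

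**Figure D2:**
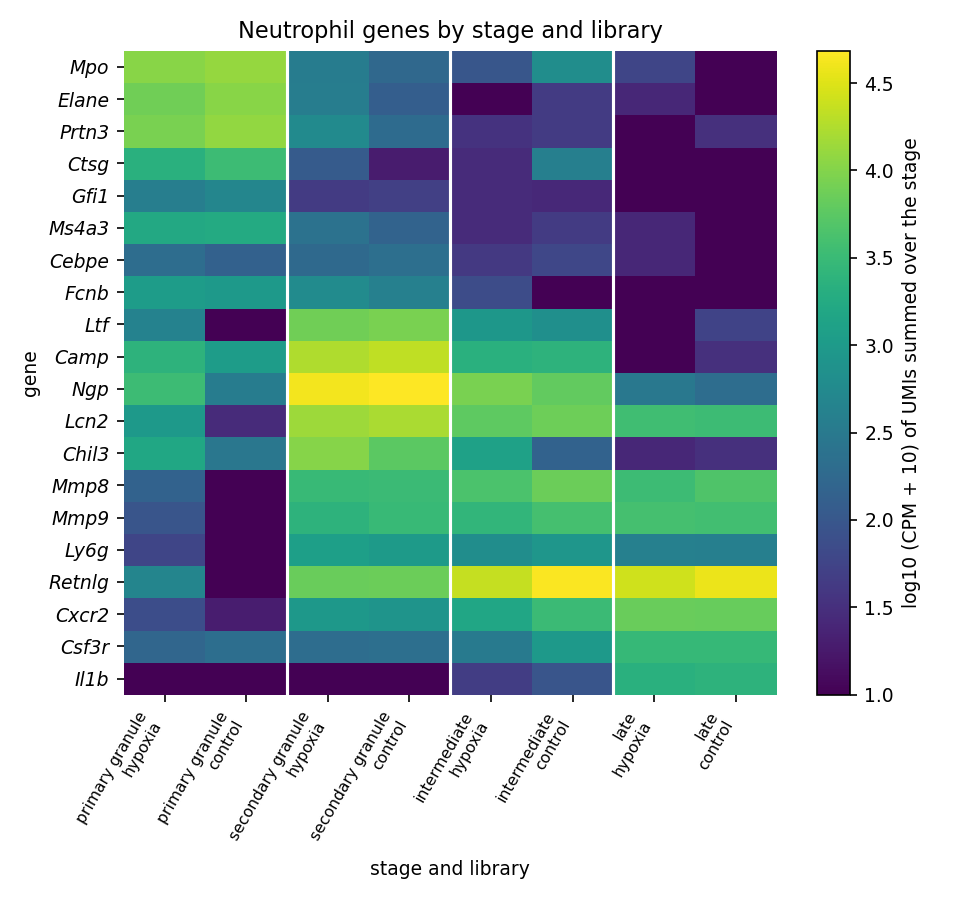
Rows are 20 neutrophil genes, columns the 4 stages in each library, and colour is log10 of the summed CPM plus 10. Mpo, Elane, Prtn3 and Ctsg are highest at the primary granule stage, Ltf, Camp and Ngp at the secondary stage and Cxcr2, Csf3r and Il1b at the late stage, in both libraries.

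The promoters of a primary granule gene and of the 3 secondary granule genes in the rule for stages are shown because these 2 groups separate the stages. Each line gives the 250 bases before the RefSeq start (GRCm38.p6), in the direction of the gene. Capitals mark the 8-base pattern TTGCNNAA or its reverse complement TTNNGCAA, a form of the site that C/EBP factors bind, searched on both strands. Ltf lies at chr9:111019042-111019291 (plus strand) with a match from -75, Ngp at chr9:110419558-110419807 (plus) with matches from -138 and -11, Camp at chr9:109849457-109849706 (minus) with none and Elane at chr10:79886062-79886311 (plus) with none.
Ltf: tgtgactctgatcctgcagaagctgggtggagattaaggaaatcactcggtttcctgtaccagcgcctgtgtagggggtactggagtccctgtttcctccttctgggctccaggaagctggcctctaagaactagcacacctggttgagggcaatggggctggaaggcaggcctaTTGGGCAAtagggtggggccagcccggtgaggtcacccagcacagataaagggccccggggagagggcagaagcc
Ngp: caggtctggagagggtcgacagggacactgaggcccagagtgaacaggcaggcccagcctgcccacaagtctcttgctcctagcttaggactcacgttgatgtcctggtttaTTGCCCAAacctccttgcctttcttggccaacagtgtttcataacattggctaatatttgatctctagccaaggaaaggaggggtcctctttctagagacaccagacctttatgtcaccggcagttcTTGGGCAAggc
Camp: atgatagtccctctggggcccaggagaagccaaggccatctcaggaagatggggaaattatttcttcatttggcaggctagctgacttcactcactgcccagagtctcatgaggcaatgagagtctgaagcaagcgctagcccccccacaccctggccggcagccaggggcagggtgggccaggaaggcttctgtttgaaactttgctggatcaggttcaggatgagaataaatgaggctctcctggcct
Elane: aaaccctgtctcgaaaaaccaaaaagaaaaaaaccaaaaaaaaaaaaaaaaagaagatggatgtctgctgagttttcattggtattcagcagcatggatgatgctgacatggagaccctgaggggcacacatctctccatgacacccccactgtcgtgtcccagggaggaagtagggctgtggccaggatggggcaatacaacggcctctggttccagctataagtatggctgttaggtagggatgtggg

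The pattern was in 9.56% of all 32851 RefSeq promoters of this length. It was in 4 of 21 promoters (19.0%) of the secondary granule list, of which 20 of 25 genes matched. The gelatinase granule and late list had it in 10 of 33 promoters (30.3%, 31 of 39 genes matched) and the primary granule list in 0 of 15 (14 of 18 genes). The pattern was chosen after others had been searched, and a match is a description of the letters, not a bound site.

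Members made up 2.10% of kept hypoxia cells (95% interval 1.76 to 2.48) and 2.03% of kept control cells (1.61 to 2.51), a ratio of 1.04 (0.779 to 1.38). The secondary granule stage held 58 of 134 hypoxia members (43.3%) and 35 of 80 control members (43.8%), a ratio of 0.989 (0.639 to 1.55). The intermediate stage held 31 and 15 (23.1% and 18.8%; 1.23, 0.646 to 2.46) and the late stage 37 and 21 (27.6% and 26.3%; 1.05, 0.600 to 1.89). The primary granule stage held 8 and 9 (5.97% and 11.3%), and its ratio of 0.531 had an interval of 0.178 to 1.55. All 5 intervals included 1, so no difference in a share was detectable with these numbers of cells. The deep primary granule cells held 20.6% of member UMIs in hypoxia and 39.3% in control, so values by stage or with every cell counting alike stand beside the sums where they differ.

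UMIs were summed over the members of each library, and each log2 ratio sets hypoxia over control after adding 10 CPM to each. Tested genes had 50 or more UMIs in the libraries together. Of these 3937 genes, 415 (10.5%) were at least 1.5-fold higher in hypoxia and 220 (5.59%) at least 1.5-fold lower. Without doublets, 193 of the 415 and 148 of the 220 still had 50 UMIs and stayed past 1.5-fold in the same direction. Without members carrying genes of other lineages, 229 and 154 did. In those settings 3387 and 3528 genes had 50 UMIs. Over all 3937 the log2 ratio had a median of 0.08. The secondary granule stage alone had 230 (13.8%) of 1664 genes higher and 118 (7.09%) lower. The late stage had 51 (13.7%) of 372 genes higher and 45 (12.1%) lower. These shares are the background for counts of genes in the same sets below. No count shows more than the size of a difference between 2 libraries. Other settings have their own shares of all genes tested. Without doublets 10.2% were higher and 9.95% lower, and without members carrying genes of other lineages 8.99% and 6.92%. With every cell counting alike the shares were 15.5% and 7.19%, and with the 4 stages weighted equally 18.8% and 6.35%. The equal weighting keeps the members carrying genes of other lineages, of which 4 in hypoxia lie at the intermediate stage. At the secondary stage 179 of 1585 genes were higher and 98 lower without doublets, and 184 of 1578 and 103 without members carrying genes of other lineages.

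**Figure D3:**
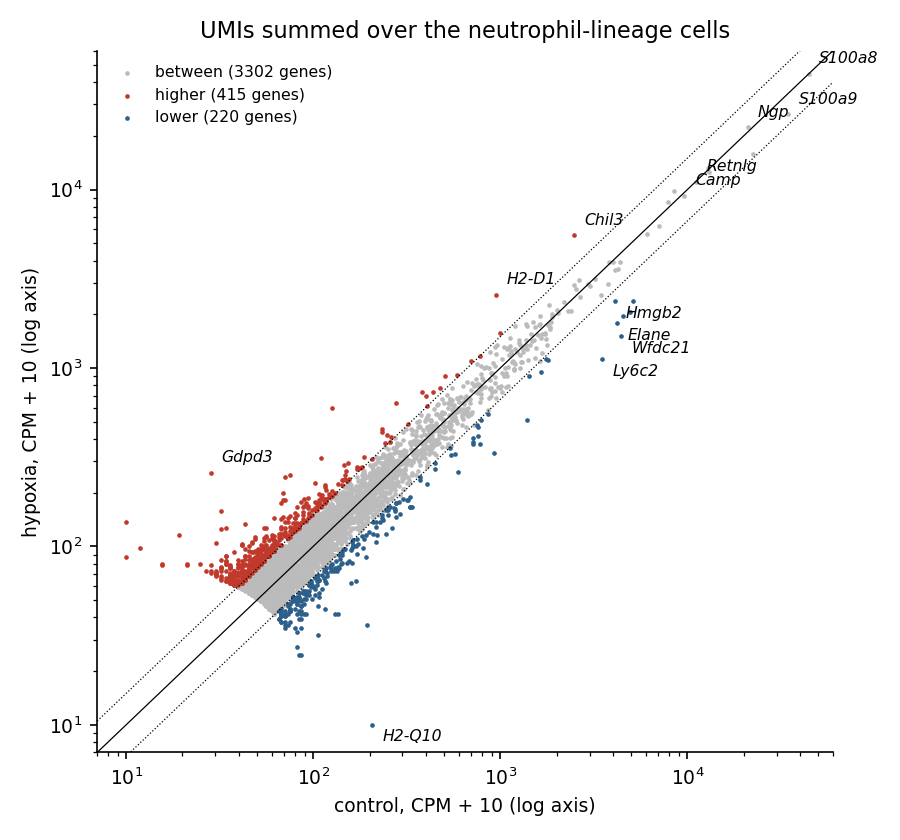
Each point is 1 of 3937 genes, with its control CPM plus 10 and its hypoxia CPM plus 10 in the summed members on log axes, and dotted lines mark 1.5-fold. Points past the lines are the 415 higher and 220 lower genes, while 3302 lie between them.

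Wfdc21, which encodes a small secreted protein with a whey acidic protein domain (chromosome 11, 83746940 to 83752646, GRCm38), stood lower in hypoxia at every stage. It was at 1501 CPM in hypoxia and 4416 in control, a ratio of 0.340 (0.316 to 0.366) and a log2 ratio of -1.55. By stage the log2 ratio was -0.997 at the primary, -1.73 at the secondary, -2.04 at the intermediate and -2.91 at the late stage. The intermediate value was -1.42 without members carrying genes of other lineages. In single cells of the secondary stage the lowest, median and highest Wfdc21 were 7.31, 22.1 and 57.6 CP10K in hypoxia and 23.6, 77.8 and 136 in control. There, 32 of the 58 hypoxia cells lay below every control cell and 28 of the 35 control cells above every hypoxia cell. Such counts of cells, here and below, were made for chosen genes only. They were not made over all genes, so how common such a separation is was not tested. At the late stage the median was 0 in hypoxia, where 10 of 37 cells had a Wfdc21 UMI, and 21.4 CP10K in control, where 20 of 21 had one. With every cell thinned to 1000 UMIs, 7 and 20 had one. The log2 ratio ranged from -1.91 to -1.28 over 16 other settings. These choose, weight or scale the cells, except the setting with no minimum of UMIs, which leaves the ratio unchanged. Outside the members Wfdc21 was at 2.80 and 5.85 CPM, and of cells with Klf1, an erythroid factor, 0.650% and 1.43% had a Wfdc21 UMI at medians of 27230 and 41733 UMIs. In cells outside the members with at least 10 CP10K of Elane it was also lower in hypoxia, at 22.1 and 75.1 CPM, with a UMI in 16.8% and 42.8% of cells and in 2.47% and 8.92% at 1000 UMIs. Wfdc17, a related gene, was at 26.1 and 185 CPM, from 18 and 100 UMIs.

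**Figure D4:**
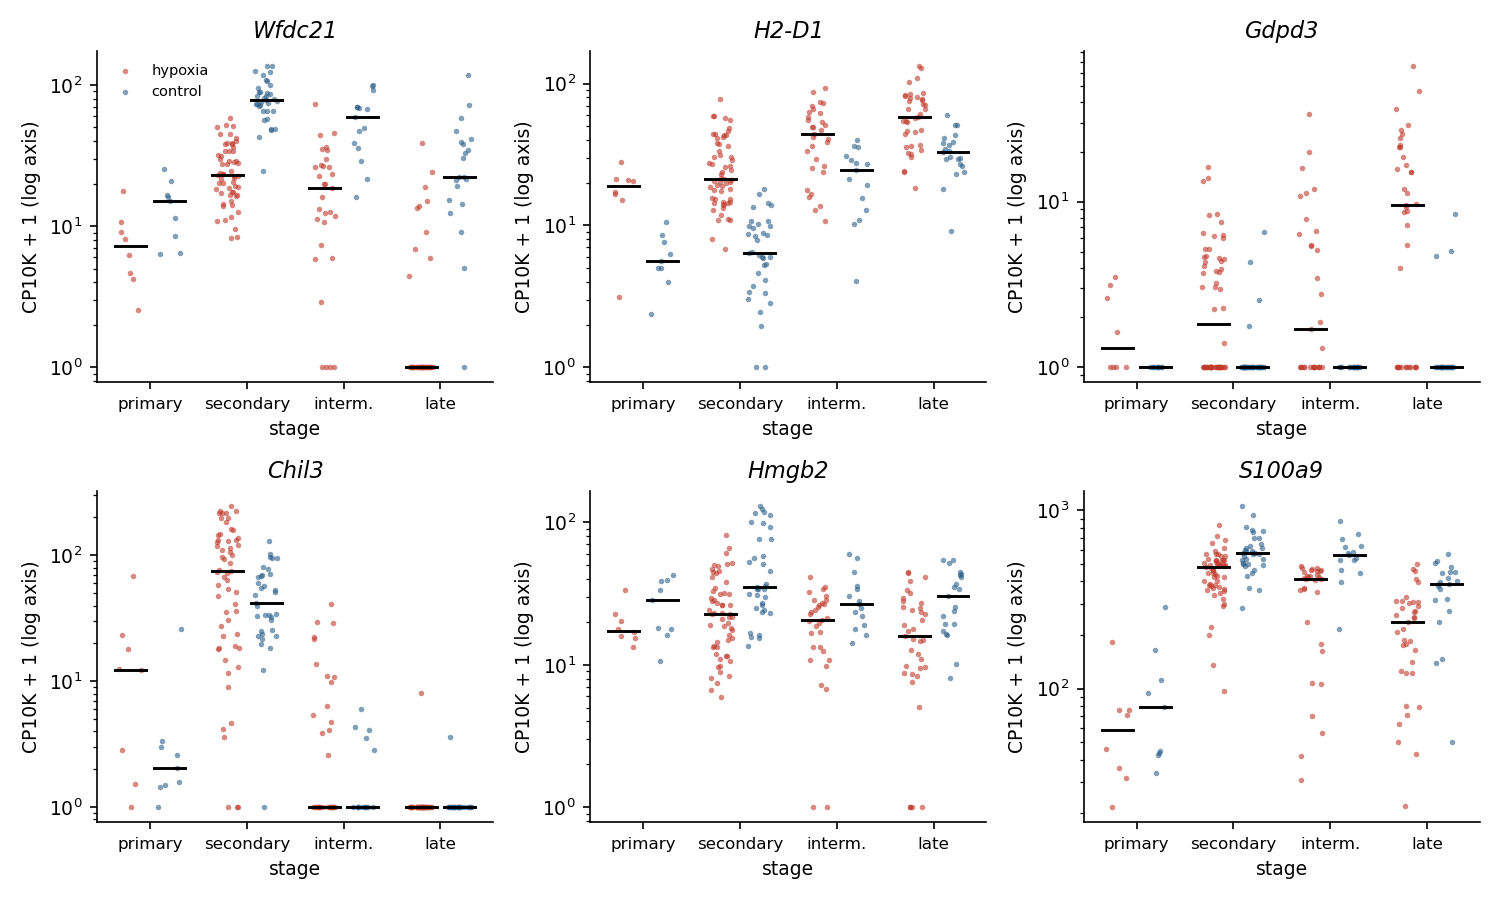
Panels show Wfdc21, H2-D1, Gdpd3, Chil3, Hmgb2 and S100a9, with each point 1 cell by stage and library in CP10K plus 1 on a log axis and a black line at the median. Secondary stage medians were 22.1 against 77.8 for Wfdc21 and 20.4 against 5.41 for H2-D1, hypoxia first.

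H2-D1, a classical MHC class I heavy chain (chromosome 17, 35263094 to 35267497), stood higher in hypoxia. It was at 2559 CPM in hypoxia and 936 in control, a log2 ratio of 1.44 that ranged from 0.98 to 1.62 over the 16 alternatives. In secondary-stage cells the lowest, median and highest H2-D1 were 5.80, 20.4 and 76.6 CP10K in hypoxia and 0, 5.41 and 17.0 in control. Of those cells, 39 of 58 in hypoxia lay above every control cell. At the primary stage 7 of 8 hypoxia cells did, and at the late stage 18 of 37, with medians of 56.9 and 32.1 CP10K. H2-D1 was also higher outside the members, at a log2 ratio of 2.07, so the difference is not particular to these cells.

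H2-Q10, a class I gene for a secreted protein (chromosome 17, 35470089 to 35474563), had no UMI in any of the 134 hypoxia members. It had 106 UMIs (196 CPM) in 42 of the 80 control members, including all 21 late-stage cells, at 3.67, 13.8 and 37.4 CP10K for the lowest, median and highest. A count of 0 in 134 cells allows up to 2.24% of cells with a UMI, and the level was at least 45.0-fold lower in hypoxia against a floor of 3 UMIs over the members (4.35 CPM). In other cells H2-Q10 was at 1.45 and 1.84 CPM, and 1.69% and 0.95% of the deeper cells with Klf1 had a UMI. In cells outside the members with at least 10 CP10K of Elane it was higher in hypoxia, at 2.43 and 0.92 CPM. There 6.18% and 1.86% of cells had a UMI, and 0 in either library at 1000 UMIs. Of 12 class I and peptide loading genes, 4 were at least 1.5-fold higher and 2 lower, with a median of 0.33. H2-Q4 was at 69.6 and 24.04 CPM (log2 1.23). H2-K1 (0.66) and B2m, the class I light chain (0.65), were the other 2 higher genes, and Pdia3, a chaperone of the loading complex (-0.70), was lower with H2-Q10. Pdia3 turned to 0.32 with cells thinned to 1000 UMIs. The class I heavy chains are near-identical in places, so the assignment of reads among H2-D1, H2-K1, H2-Q4 and H2-Q10 is uncertain.

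Gdpd3, which encodes a lysophospholipase D (chromosome 7, 126766414 to 126775645), was the gene furthest above control by the naming rule. It was at 250 CPM in hypoxia and 18.5 in control, from 172 and 10 UMIs, a ratio of 13.5 (7.16 to 28.6). Cells with a Gdpd3 UMI numbered 76 of 134 in hypoxia and 7 of 80 in control, and 43 and 4 after each cell was thinned to 1000 UMIs. The log2 ratio was 2.17 at the secondary and 3.52 at the late stage, the latter from 70 and 4 UMIs. The primary and intermediate stages had 11 and 41 UMIs in hypoxia and 0 in control, so no ratio is given there. Late-stage medians were 8.57 CP10K in hypoxia and 0 in control. Gdpd3 was also higher outside the members (log2 1.57). Of cells with Klf1 2.21% had a Gdpd3 UMI in hypoxia and 0.653% in control at 1000 UMIs, and 36.0% and 12.5% unthinned. Of cells outside the members with at least 10 CP10K of Elane, 5.65% and 1.49% had one at 1000 UMIs and 69.3% and 37.5% unthinned, at medians of 24892 and 32069 UMIs. The members, which are shallower, had one in 43 of 134 and 4 of 80 cells at 1000 UMIs.

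The other 11 genes furthest above control were Ermap (log2 2.36), Hmgn1 (2.29), Ces2g (1.95), Fmo5 (1.92), Aqp1 (1.91), Tinagl1 (1.78), Car1 (1.78), Prdx2 (1.75), Lpl (1.68), Cpox (1.52) and Hspd1 (1.52). Ermap, Aqp1, Car1, Prdx2 and Cpox are genes of red cell precursors, and erythroid markers summed to a median of 2.49 CP10K in hypoxia members and 0 in control. Ermap had 48 and 3 UMIs, a ratio of 12.6 (4.04 to 62.99). Without members carrying genes of other lineages Ermap was at 0.98, Aqp1 at 0.32 and Ces2g at 0.28, and with cells thinned to 1000 UMIs Ermap was at 0.19. Hmgn1 was at 0.93 without doublets. With a threshold of 25 CP10K for S100a8 plus S100a9 Ermap was at 0.49, Hmgn1 at 0.89 and Aqp1 at 0.26. With every cell counting alike Car1 was at 0.49, Cpox at 0.26, Prdx2 at 0.33 and Ces2g at 0.64. Cpox, a heme synthesis enzyme, without the members that carry genes of other lineages was at -0.14. Fmo5, a flavin monooxygenase gene, was at 69.6 and 11.1 CPM and Tinagl1, a basement membrane gene, at 94.3 and 20.3, with log2 ratios of 1.75 and 2.07 when every cell counted alike. Lpl, encoding lipoprotein lipase, was at 1.37 that way.

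After H2-Q10, the genes furthest below control were Wfdc17 (log2 -2.43), Sox13 (-1.81), Chil5 (-1.74), Rdh12 (-1.70), Ly6c2 (-1.64), Cwc22 (-1.64), Wfdc21 (-1.55), Gstm1 (-1.48), Ctsg (-1.44), Stfa2 (-1.41) and Tspoap1 (-1.36). Over the 16 alternatives Sox13 came as high as -0.25, Ctsg -0.30, Tspoap1 -0.37 and Gstm1 -0.55, all within 1.5-fold. The others listed stayed past 1.5-fold. Ly6c2, a surface antigen of immature myeloid cells, was at 1113 CPM in hypoxia and 3480 in control. Its median was 21.6 CP10K against 51.4 at the primary stage, and 7 of 9 control cells there lay above every hypoxia cell. The medians were 10.7 and 21.6 CP10K in secondary-stage cells, and the log2 ratio outside the members was 0.52, opposite in sign to that in members. Rdh12, a retinol dehydrogenase gene, was at 31.9 and 126 CPM, and Sox13, a transcription factor gene, at 14.5 and 75.8. Cwc22, a splicing factor, was lower outside the members too (-1.81). Chil5 and Stfa2 belong to families of close copies, as do Wfdc17 and Wfdc21, so their reads may be split among copies.

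S100a8 (chromosome 3, 90669071 to 90670034) was near equal in the sums, at 44594 CPM in hypoxia and 44586 in control. S100a9 (chromosome 3, 90692630 to 90695721), its partner chain, was at 26399 and 34696 CPM, a log2 ratio of -0.39. This ratio was within 1.5-fold in the sum and ranged from -0.75 to -0.10 over the 16 alternatives. It was below 0 at each stage, at -0.57, -0.49, -1.27 and -0.65 from primary to late, with -0.59 in place of -1.27 without members carrying genes of other lineages. Over the 16 alternatives the log2 ratio of S100a8 ranged from -0.35 to 0.29. For the 2 genes together the median log2 ratio was -0.20 in the sum and -0.27 with every cell counting alike. By stage this median was -0.35 at the primary, -0.32 at the secondary and -0.42 at the late stage. At the secondary stage the lowest, median and highest S100a9 were 95.5, 479 and 826 CP10K in hypoxia and 281, 575 and 1063 in control, so the cells largely overlapped. Both genes defined the members, so these values describe the cells chosen.

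Primary granule genes were lower in the summed hypoxia members and in cells weighted alike. Of 15 tested, 7 were at least 1.5-fold lower and 0 higher, with a median of -0.57, and with every cell counting alike 8 were lower and 1 higher (median -0.66). The 7 were Mpo (-1.11), the neutrophil elastase gene Elane (-1.24), the proteinase 3 gene Prtn3 (-1.26), the cathepsin G gene Ctsg (-1.44), Prss57 (-0.75), the granule proteoglycan gene Srgn (-1.21) and the cathepsin D gene Ctsd (-0.92). Mpo, Elane, Prtn3 and Ctsg define the primary granule stage in both libraries, so their values within it are limited by that choice. There Mpo was at -0.26, Elane at -0.44, Prtn3 at -0.51 and Ctsg at -0.64. Srgn, Ctsd and Prss57, which do not define it, were at -0.67, -0.89 and -0.30. The 8 hypoxia cells held 31.1, 109 and 211 CP10K of Mpo (lowest, median, highest) and the 9 control cells 74.0, 137 and 185. Without the 2 hypoxia cells of that stage called doublets Mpo was at 0.01, Elane at -0.09 and Prss57 at 0.00. At the secondary stage 6 of 11 primary granule genes were higher, with Mpo at 1.01, Elane at 1.53 and Prtn3 at 1.60, but without 1 doublet Mpo was at -1.32, Elane at 0.49 and Prtn3 at 1.34. Lyz2, the lysozyme gene, was at 9861 and 8470 CPM (0.22).

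Secondary granule genes were mostly near equal in the sum. Of 22 tested, 2 were higher and 3 lower by 1.5-fold, with a median of -0.06, which came to 0.22 without doublets. At the primary granule stage, with 8 hypoxia and 9 control cells, 7 of 15 were higher and 1 lower (median 0.55). Of all genes tested there, 122 of 1205 were higher and 121 lower. Without doublets 5 of 12 were higher and 2 lower (median 0.27), against 82 and 115 of 1024 genes. Ltf stood at 3940 CPM in hypoxia and 3778 in control, Camp at 9217 and 9639, Ngp at 22400.0 and 20966 and Lcn2, an iron-siderophore binder, at 8509 and 7900. Their log2 ratios were 0.06, -0.06, 0.10 and 0.11 in the sum and -0.19, -0.30, -0.21 and -0.22 at the secondary stage. There Ltf held 0, 73.9 and 209 CP10K in hypoxia and 2.21, 83.1 and 177 in control, so the cells overlapped over nearly the whole range.

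Chil3, encoding a chitinase-like secreted protein (chromosome 3, 106147554 to 106167564), was the higher exception in the sum, at 5524 and 2478 CPM. Its secondary-stage cells held 0, 73.8 and 247 CP10K in hypoxia and 0, 40.5 and 128 in control, and 17 of 58 hypoxia cells lay above every control cell. The log2 ratio was 1.15 in the sum, 2.43 at the primary, 0.89 at the secondary and 3.15 at the intermediate stage (2.36 without members carrying genes of other lineages and 1.77 without doublets), and the late stage had Chil3 in 1 cell of each library. Orm1, an acute phase protein gene, was the other higher gene (0.67). Hp, the haptoglobin gene, was at 943 and 1638 CPM (-0.79) and below control at all 4 stages, from -1.23 to -0.64, with the intermediate value of -1.23 at -0.47 without members carrying genes of other lineages and -0.19 without doublets. Olfm4, an olfactomedin that marks a subset of neutrophils, was at 155 and 327 CPM (-1.03), from 7 hypoxia and 10 control cells, and Ceacam10 at 50.8 and 94.3 (-0.78).

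Genes of gelatinase granules and late neutrophils had 2 of 36 higher and 5 lower, with a median of -0.20, which came to 0.09 without doublets and -0.50 with the 4 stages weighted equally. Mmp8 and Mmp9, the collagenase and gelatinase genes, were at 0.13 and 0.09, Retnlg at 0.00 and Cxcr2 at 0.18. Ly6g, the antigen of the Gr-1 antibody, was at 759 and 540 CPM (0.48). Fpr2, a formyl peptide receptor, was higher (0.59) and so was Stfa3 (1.62), a stefin of which 9 hypoxia and 6 control cells had UMIs. The lower genes were Wfdc21, Wfdc17, Stfa2, the Fc receptor gene Fcgr4 (-0.79) and Gm5483 (-0.66). At the intermediate stage (summed medians of 913 and 1067 CP10K) 0 of 27 were higher and 22 lower (median -1.03), but without members carrying genes of other lineages 1 and 8 of 25 (-0.30) and without doublets 4 and 5 of 25 (0.03). Of all genes tested at that stage, 210 of 690 were higher and 191 lower. Without members carrying genes of other lineages these were 41 and 45 of 326, and without doublets 70 and 82 of 379. At the late stage (681 and 811 CP10K) 1 of 25 was higher and 5 lower (median -0.39). Retnlg there had a median of 149 CP10K in hypoxia and 316 in control, with ranges of 0 to 828 and 0 to 972, and Cxcr2 64.5 and 70.6.

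**Figure D5:**
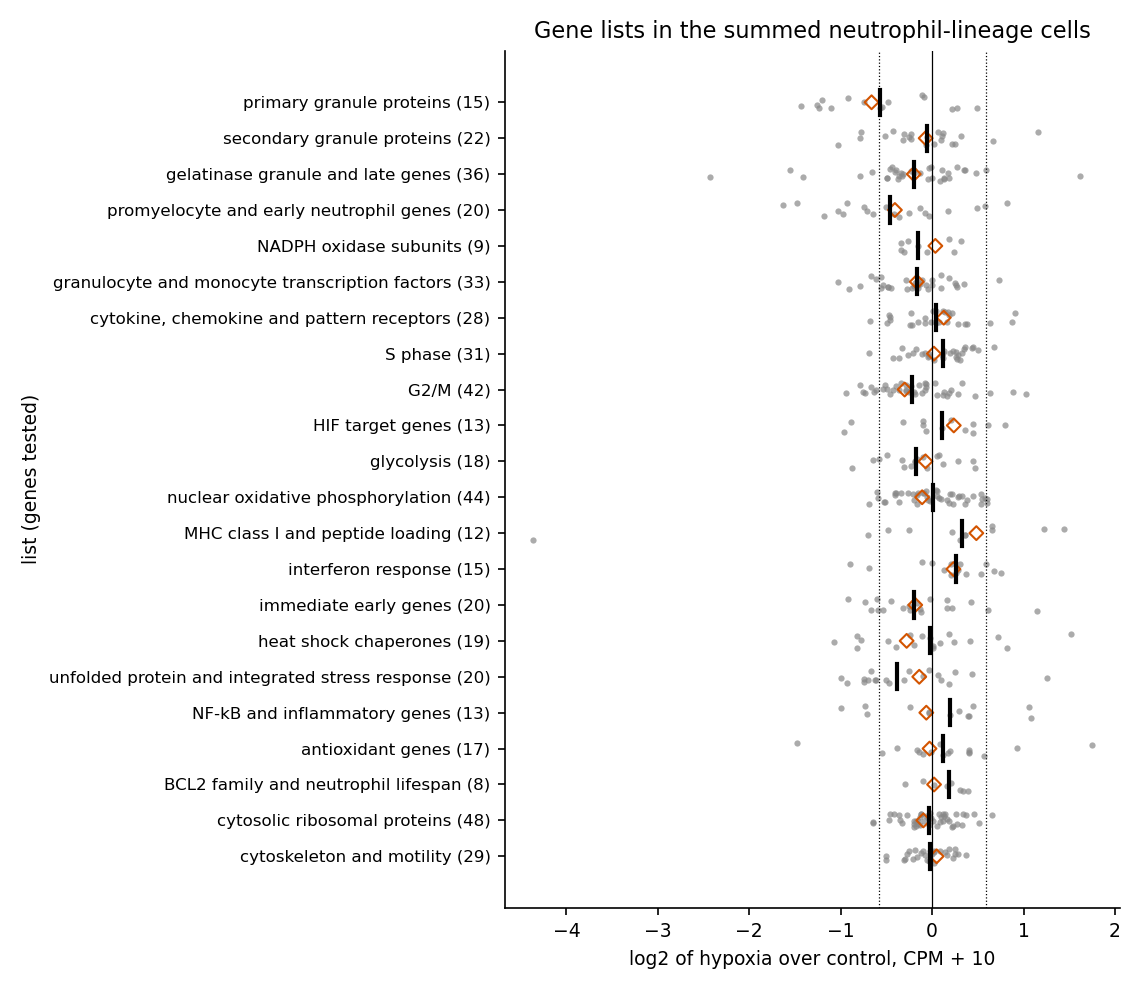
Each dot is a gene tested, by its log2 ratio of hypoxia over control in the summed members, with lists as rows. Black bars mark the median, open diamonds the median with every cell counting alike and dotted lines 1.5-fold. The primary granule median (-0.57) and that of promyelocyte genes (-0.46) lie lowest and that of MHC class I (0.33) highest among the lists of at least 10 tested genes.

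Of 20 promyelocyte and early neutrophil genes, 9 were lower and 1 higher (median -0.46, or -0.01 with the 4 stages weighted equally). The lower ones included Gfi1, a repressor needed for neutrophil formation (-1.03), Ly6c2, Gstm1 (-1.48) and the granule membrane gene Nkg7 (-1.18). Ms4a3 was at -0.71 in the sum and -0.09 at the primary granule stage. Among 33 transcription factors, 5 were lower and 1 higher (median -0.17). Cebpe, the C/EBP factor of secondary granule genes, was at 131 and 144 CPM (-0.13). Cebpa, which acts earlier, was at -0.91 in the sum and -0.05 with every cell counting alike, and Junb was at -0.67. Foxo3 was higher (0.73).

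Hmgb2, a chromatin protein of dividing cells on that list and on the G2/M list, was at 2360 and 4078 CPM (-0.79) and below control at each stage, from -1.05 to -0.46. At the secondary stage it held 4.97, 21.9 and 81.1 CP10K in hypoxia and 12.5, 34.1 and 130 in control, and 15 of 58 hypoxia cells lay below every control cell. Outside the members Hmgb2 was at 0.01. Of 42 G2/M genes, 7 were lower and 3 higher (median -0.22), but the median was 0.14 with the 4 stages weighted equally. That weighting keeps the members carrying genes of other lineages. At the intermediate stage, where most of those in hypoxia lie, 6 of 8 G2/M genes were higher and 0 lower (median 1.43). Of all genes tested there, 210 of 690 were higher and 191 lower. Secondary-stage cells had 6 of 19 lower and 0 higher (median -0.49), and without doublets 3 were lower, with a median of -0.51. Of 31 S phase genes 1 was higher, the replication helicase gene Mcm2 (0.67), and 1 lower, Casp8ap2 (-0.69), with a median of 0.12. Without doublets 0 were higher and 3 lower (-0.20), and with the 4 stages weighted equally 7 and 0 (0.34). Among G2/M genes Ccnb1, cyclin B1, was at 1.03 and the kinase Ttk at 0.88, while Aurkb was at -0.94.

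Among 28 receptors for cytokines, chemokines and microbial patterns, 3 were higher and 1 lower (median 0.04). Cd14, the lipopolysaccharide co-receptor, was at 206 and 105 CPM (0.90). By stage it was at 1.53 in late cells and -0.13 in secondary granule cells, and late cells held 0, 6.49 and 44.2 CP10K in hypoxia and 0, 0 and 10.7 in control. The integrin genes Itga4 (0.64) and Itgb1 (0.88) were the other 2, which turned to -0.07 with cells thinned to 2000 UMIs and -0.45 at 1000 UMIs. Csf3r was at -0.15. Ifngr1, the interferon gamma receptor, was lower (-0.68). The 9 NADPH oxidase subunits, which make superoxide, all lay within 1.5-fold, with a median of -0.15 (0.16, with 1 higher, without doublets), and Cybb, the catalytic subunit, was at 2256 and 1812 CPM (0.31). The 29 cytoskeleton and motility genes also lay within 1.5-fold, with a median of -0.02 (0.20, with 1 higher, without doublets). Actb, encoding beta actin, was lowest of them at 15759 and 22344 CPM (-0.50) and below control at each stage, from -1.20 to -0.46, with the intermediate value of -1.20 at -0.72 without members carrying genes of other lineages.

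Inflammatory genes differed in direction. Of 13 NF-kB and inflammatory genes 2 were higher and 3 lower (median 0.19, or -0.06 with every cell counting alike). Il1rn, the interleukin 1 receptor antagonist, was at 168 and 75.8 CPM (1.05) and at 1.27 in the late stage. Il1b was at 203 and 209 CPM (-0.04). Osm, encoding oncostatin M, was at 155 and 320 CPM (-0.998) and, at the secondary stage, at 74.4 and 272 CPM (-1.74). Cxcl2, a neutrophil chemokine, was at 55.1 and 98.0 (-0.73) and Nfkbiz at -0.71. Ccl9 was at 1.08 in the sum but -0.62 with every cell counting alike. Of 20 immediate early genes 5 were lower and 2 higher (median -0.20), and without doublets 1 and 3 (0.02). Jun was at -0.92 and Egr1 at 1.15, while Dusp6 was at 0.62 and Rhob at -0.74. Secondary-stage cells had 6 of 16 lower and 0 higher. The interferon response list had 3 of 15 genes higher and 2 lower (median 0.26, or -0.07 with the 4 stages weighted equally), led by Oasl2 (0.76) and Ifi27l2a (0.68) above and Ifitm1 (-0.90) and Trim30a (-0.70) below.

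Genes that hypoxia-inducible factor acts on did not stand together on one side. Of 13 tested, 2 were higher and 2 lower (median 0.10). Higd1a (52.2 and 25.9 CPM, 0.79) and Narf (0.61) were higher. Plin2, the lipid droplet coat gene, was at 40.6 and 88.8 CPM (-0.96), and Cited2, a HIF antagonist, at 377 and 708 (-0.89) and below control at each stage, from -1.07 to -0.53, with the intermediate value of -1.07 at -0.55 without members carrying genes of other lineages. Of 18 glycolysis genes 2 were lower and 0 higher (median -0.17, or 0.02 without doublets). Gpi1 was at 403 and 747 CPM (-0.87) and Gapdh at 1117 and 1750 (-0.64), both below control at each stage. Of 44 nuclear oxidative phosphorylation genes 2 were higher and 3 lower (median 0.01), and without doublets 0 and 8 (-0.20). Ndufs1 and Uqcrc2 were at 0.60 and Atp5e at -0.69, with Ndufb3 at -0.61.

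Of 20 genes of the unfolded protein and integrated stress responses 8 were lower and 1 higher (median -0.39), and 0 were lower and 3 higher with the 4 stages weighted equally. The chaperone gene Hsp90b1 was at -0.93, Sdf2l1 at -0.995 and Xbp1, a transcription factor of this response, at -0.61, while Asns, asparagine synthetase, was at 1.25. Of 19 heat shock chaperones 4 were lower and 3 higher (median -0.02), and without doublets 9 and 0 (-0.56). Hspa8 was at -1.07 and Chordc1 at -0.83, and both were also lower outside the members (-1.13 and -1.31). The mitochondrial chaperone genes Hspd1 (1.52) and Hspa9 (0.81) were higher, and both turned below 0 with cells thinned to 1000 UMIs. Of 17 antioxidant genes 2 were higher, Prdx2 (1.75) and Sod1 (0.93), and Gstm1 was lower. Sod1 turned to -0.23 without doublets. The 8 BCL2 family genes tested lay within 1.5-fold, with a median of 0.18, and so did the 3 cholesterol genes tested, with a median of 0.31.

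The values of cytosolic ribosomal protein genes moved with the cells that carry genes of other lineages. In the sum 1 of 48, Rpl26 (0.65), was higher and 2, Rpl30 and Rplp2 (both -0.65), were lower, with a median of -0.03. Without doublets 21 of the 48 were lower (median -0.57), and without members carrying genes of other lineages 12 (-0.32). At the secondary stage 24 of 47 were higher, with a median of 0.59, but without 1 cell carrying genes of other lineages 11 were, with a median of 0.32, without 1 doublet 10 (0.31), and with every cell counting alike 2 (0.16). At the late stage 5 of 9 were higher and 0 lower (median 0.73). Its cells had at most 3347 and 3804 UMIs, under the 8000 needed to be marked as carrying genes of other lineages. Erythroid markers there, globins included, had a median of 0 CP10K in both libraries and a highest sum of 57.2 in hypoxia and 10.5 in control. Whether genes of other lineages bear on the late-stage value was not tested.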

How the data were processed

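Single-cell RNA was counted in 2 libraries, 1 hypoxia and 1 control. The deposited tables hold raw UMI counts per cell and gene, corrected by recursive substitution error correction, with no normalization, per the file headers. Per the file headers, the pipeline was BD WTA Rhapsody Analysis Pipeline 1.7.1, with reads placed on GRCm38 and GENCODE vM19. The submitters' processing notes name Bowtie2. The sources used here do not say how cells were called. The tables hold 6406 hypoxia and 3956 control cells, with 137504361 and 121415081 UMIs and a median of 21529 and 32277 UMIs per cell. Genes that only 1 table lists count as 0 in the other, and at most 321 UMIs fell in a column of 1 table alone.

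From these counts, CP10K per cell, summed UMIs, CPM and the log2 ratio with 10 CPM added were computed with Python 3.11.15, numpy 2.4.6, scipy 1.17.1 and pandas 2.3.3. Genes needed at least 50 UMIs over both libraries. Intervals are exact (Poisson for CPM, conditional for ratios of counts, Clopper-Pearson for shares, 95%) and treat UMIs or cells as independent. Only the interval for ratios of counts was run on simulated data. Those data were independent Poisson counts, so the run cannot show how UMIs clustered in cells affect the interval. A share allowed by a count of 0 is 3 counts of the total. Scrublet (scanpy 1.11.5, seed 0) marked doublets in each library, which were kept in the main values. Thinning drew 1000 or 2000 UMIs per cell. At 2000 UMIs, 37 hypoxia and 11 control members were too shallow and left out. Promoters and gene positions come from RefSeq (GRCm38.p6), matched by symbol.

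The members, the 24 gene lists and the rules were chosen with earlier results of these data known. Named genes are those of the neutrophil lists, the 12 highest and 12 lowest log2 ratios among genes with at least 50 CPM and 10 cells in the higher library and under 50% of its UMIs from 1 cell (leaving out globin, sex-linked, mitochondrial and unnamed models), up to 2 past 1.5-fold in each direction of any other list, and the 15 highest genes over other cells. Genes named outside this rule, such as H2-K1, B2m, Nfkbiz and Prg2, were chosen after their values were seen. The alternatives were 17 planned and 4 added after the data were seen, which were leaving out members with genes of other lineages, weighting the 4 stages equally, thinning to 1000 UMIs and leaving out members under 2000 UMIs from the share.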

Additional observations from a re-analysis of the deposited data

How the results depend on the processing

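No paired analysis was possible because each group has 1 library, and for the same reason no replicate could be left out. The ratio of the shares of members ranged from 0.869 to 1.08 over the 8 alternatives run for it, within its interval. For the log2 ratios of 110 named genes, 1980 values were computed under the alternatives. Of these, 1578 lay within counting error of the reported value and 378 outside it. The other 24 changed direction, which was counted only for genes past 1.5-fold. Of the 93 genes past 1.5-fold, 74 kept 1 direction in all 16 alternatives that keep the 10 CPM added, and of all 110 genes 77 did. The setting with no minimum of UMIs is 1 of the 16 and changes no ratio. Its 110 values were therefore fixed in advance within counting error and in the same direction. Genes within 1.5-fold also changed sign, such as S100a8, which kept its direction in 8 of these 16, and Il1b in 11. Where values changed, the cause was not tested unless named.

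The genes at least 1.5-fold higher numbered 137 with 50 CPM added, 1514 with no minimum of UMIs, 740 with the 4 stages weighted equally, 96 with cells thinned to 2000 UMIs and 75 with cells thinned to 1000 UMIs (415 reported). Fewer genes reached the minimum in thinned cells (1036 and 686 of 3937). Genes lower numbered 337 without doublets, 89 with 50 CPM added, 686 with no minimum, 104 thinned to 2000 and 57 thinned to 1000 UMIs (220 reported). Higher genes made up 65.4% of those past 1.5-fold, and 53.2% with S100a8 plus S100a9 of at least 25 CP10K, 75.9% with Ltf plus Camp plus Ngp of at least 10 CP10K required, 50.7% without doublets and 48.0% in cells thinned to 2000 UMIs. The ratio of shares of members with Ltf plus Camp plus Ngp under 20 CP10K was 0.907, and 0.356 in cells thinned to 2000 UMIs, which leaves the shallow late cells out. The secondary granule median was 0.24 with the limit of 25 CP10K, -0.38 with Ltf plus Camp plus Ngp required and 0.22 without doublets. The gelatinase and late median was -0.38 with Ltf plus Camp plus Ngp required, 0.090 without doublets and -0.50 with 4 stages weighted equally.

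Among genes past 1.5-fold, some log2 ratios changed direction. With Ltf plus Camp plus Ngp required they were Prss57 (0.19), Ms4a3 (0.019) and Dusp6 (-0.039), and with the limit of 25 CP10K Car1 (-0.048). Without doublets they were Cpox (-0.089), Hspa9 (-0.15) and Sod1 (-0.23), without members carrying genes of other lineages Cpox (-0.14), with every cell counting alike Ccl9 (-0.62) and with 4 stages weighted equally Ifi27l2a (-0.22). In cells thinned to 2000 UMIs they were Prss57 (0.034), Cebpa (0.24), Nkg7 (0.42), Itga4 (-0.066), Oasl2 (-0.036) and Ccl9 (-0.93). In cells thinned to 1000 UMIs they were Itgb1 (-0.45), Hspd1 (-0.031), Higd1a (-0.49), Pdia3 (0.32), Hspa9 (-0.25), Sdf2l1 (0.21), Ccl9 (-0.37) and Rpl26 (-0.14). Genes with few UMIs per cell limit what thinned cells can show.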
